A study of Mustela putorius furo with 8 samples.

Results

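Ferret pancreatic ductal epithelia (PDE) labelled as CFTR knockout were compared with PDE labelled wild-type on day 9 at an air-liquid interface, the last of the days sampled. All cells that the authors retained in the 2 day 9 libraries were used, 7905 of the 32945 retained cells of the series, with 2489 from the CFTR KO/KO cultures (CF) and 5416 from the wild-type cultures (WT). Duct cells had been isolated from the pancreata of newborn ferrets, expanded for 10 passages on 804G-coated dishes and polarized on transwell inserts. The series holds 8 libraries, 1 for each genotype at days 2, 5, 7 and 9 at the interface, and the longer time that the culture method in the labels also mentions was not used. Cells of several animals of each genotype had been pooled in each library, and the pooled donors were ones that the study describes as differing in PDX1, so PDX1 here is not independent of how they were chosen. Genotype, the pooled animals and the library cannot be told apart with 1 library a side, so no test was made and no p-value is given. The comparison describes these libraries.

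Ducts of the exocrine pancreas carry digestive enzymes to the gut and add a bicarbonate-rich fluid to them. CFTR is the apical chloride and bicarbonate channel on which that fluid depends, and its loss causes cystic fibrosis. Centroacinar cells are the terminal cells of the duct tree, where ducts meet the enzyme-making acini.

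UMIs (unique molecular identifiers, 1 per captured mRNA molecule) were summed over the retained cells of each library and scaled to counts per 1000000 (CPM). The CF library held 50009712 UMIs, with a median of 19941 UMIs and 4511 genes per cell, and the WT library held 84781888, with a median of 14949 UMIs and 3680 genes. The median share of mitochondrial UMIs per cell was 5.65% in CF and 10.3% in WT. Between them the libraries shared 3 retained barcodes. Intervals given below are exact 95% intervals and cover counting error only. For a count of 0, 3 UMIs were taken as the limit, which is less cautious than those intervals. This limit corresponds to 0.0600 CPM in CF and 0.0354 CPM in WT, and folds given against it leave out the counting error of the other library. In summed libraries, fewer cells of a type and less RNA per cell cannot be told apart.

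The tissue label was set beside markers of epithelia and of other cell types, and the keratins and CDH1 are not particular to pancreatic duct. The foregut factor SOX2 and the lung factor NKX2-1 were present in WT and PDX1 was without UMIs there, as given below. The epithelial keratins KRT19 (4011 CPM in CF, 3772 CPM in WT) and KRT7 (3595 and 2493 CPM) were abundant in both libraries, as was the epithelial cadherin CDH1 (524 and 508 CPM), while the duct transcription factor SOX9 stood at 11.8 and 10.9 CPM. Of 15 acinar enzymes listed, 6 were in the matrix, and 3 of these had UMIs. The colipase gene CLPS, at 81.4 CPM in CF and 110.3 CPM in WT, made nearly all of their sum, which was 110.4 CPM in WT. Of 13 endocrine markers listed, 11 were in the matrix, and they summed to 0.56 CPM in CF and 0.955 CPM in WT, immune markers to 9.16 and 20.6 CPM with PTPRC at 0, endothelial markers to 1.36 and 0.283 CPM, ciliated cell markers to 5.04 and 3.77 CPM, and neural markers to 0.26 and 0.259 CPM. Genes outside the matrix were not analysed here.

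CFTR itself was read at 11.4 CPM (570 UMIs) in the library labelled CF and at 29.5 CPM (2498 UMIs) in the library labelled WT, 2.59-fold higher in WT (2.36 to 2.84). Its level in CF was not at 0, and it ranged from 3.65 to 38.6 CPM over the 11 CF clusters of at least 50 cells and from 9.72 to 58.6 CPM over the 18 WT clusters, so the ranges overlapped. Those CF levels rest on 1 to 198 UMIs a cluster, and no level of free RNA was measured. The libraries were read from the 3′ end of transcripts, and the sources used here do not give which part of the gene the knockout allele lacks, and the origin of these UMIs was not tested. The study describes the knockout as making no CFTR mRNA, whereas the library labelled CF held CFTR UMIs. CF below means the library with that label. RefSeq (ASM1176430v1.1) places CFTR at 74378912 to 74547852. PDX1, the transcription factor that specifies the pancreas in the embryo, had 222 UMIs (4.44 CPM) in CF and 0 in WT, at least 125-fold higher in CF against the 3-UMI limit. It had 1 to 44 UMIs in 10 of the 11 CF clusters, with 3 or fewer in clusters 13, 21 and 23, and 0 UMIs in the 18 WT clusters of at least 50 cells.

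Of 8092 genes at 10 CPM or more in at least 1 library, 288 (3.56%) were at least 2-fold higher in CF and 306 (3.78%) at least 2-fold lower, on the scale of log2(CPM + 1), CF minus WT. The median difference over all tested genes was 0.09. Scaling with TMM factors moved that median by −0.13 and DESeq2 size factors by −0.10, and values below are on the CPM scale. Higher genes made up 48.5% of those past 2-fold, against 38.1% with TMM scaling. A gene that reached 10 CPM in only 1 of the libraries had to differ, so the counts of list members given below are a description. A short list with few or no genes past 2-fold is near the shares over all genes, which is no result about that list.

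**Figure D1:**
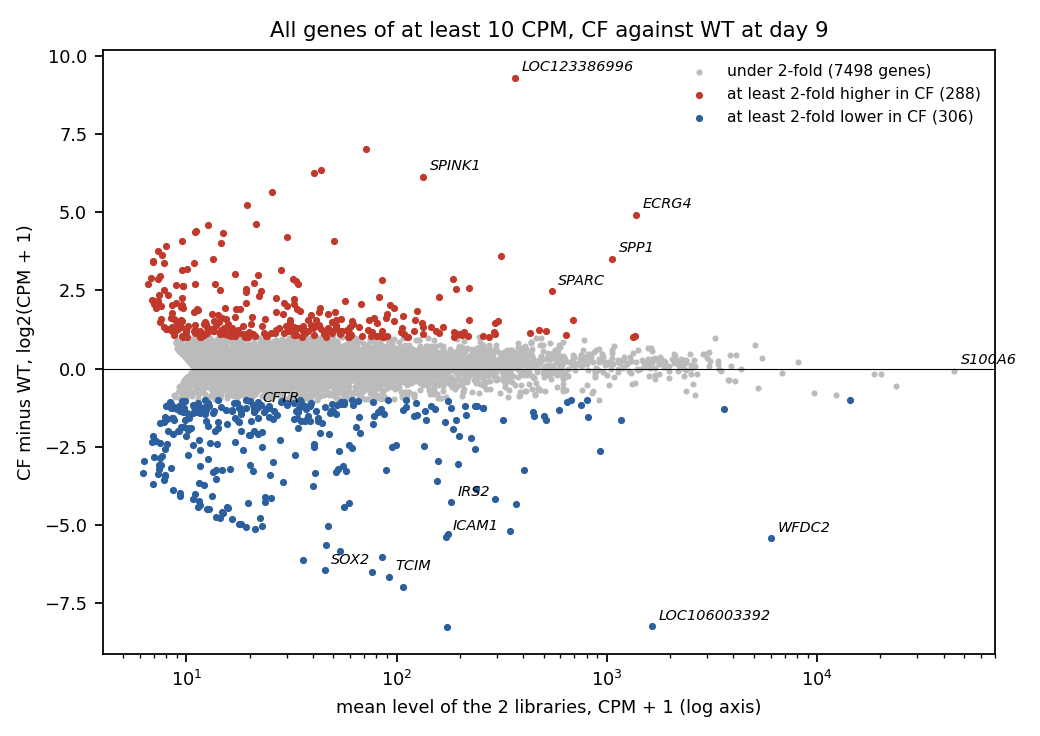
Log2 difference between the CF and WT libraries at day 9 (CPM + 1, vertical axis) against the mean level of each of the 8092 tested genes (horizontal axis, log scale). Each point is a gene, and the coloured points are the 288 higher and 306 lower genes. Most genes sit near the median of 0.09, with WFDC2 (−5.44) and SPP1 (3.51) among the labelled genes at high levels.

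The 12 non-LOC genes furthest above WT, among genes at 50 CPM or more, were led by SPINK1, a secreted inhibitor of trypsin. SPINK1 was at 261 CPM in CF and 2.75 CPM in WT, 95.1-fold higher in CF (83.6 to 109). ECRG4, which encodes a secreted peptide precursor, was at 2656 CPM in CF and 87.1 CPM in WT, 30.5-fold higher (29.8 to 31.2). TFPI, the inhibitor of tissue factor in coagulation, was at 56.3 CPM against 2.12 CPM, 26.5-fold higher (22.8 to 31.0). LY6D, a surface protein of stratified epithelia, was at 578 CPM against 46.6 CPM, a log2 difference of 3.61. SPP1, the secreted phosphoprotein osteopontin, was at 1939.7 CPM against 169.8 CPM, 11.4-fold higher (11.2 to 11.6).

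The other 7 of these genes stood between 2.47 and 2.86 above WT on the log2 scale. They were ATP6V0D2, a subunit of the vacuolar proton pump, MAL, a proteolipid of apical membrane transport, DKK1, a secreted WNT antagonist, the metalloprotease ADAMTS1, the uroplakin UPK3A, FAM174B and the matrix glycoprotein SPARC. MAL was at 325 CPM in CF and 43.8 CPM in WT, DKK1 at 148 and 20.1 CPM, and SPARC at 922 and 166 CPM.

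Few of these genes were evenly spread over the cells. Cluster 19 of CF, named ductal by the authors and led by SPINK1, TFF3 and PIGR, held the largest part of the SPINK1 UMIs of CF, and cluster 18 held 27.2%. Over CF clusters SPINK1 ranged from 1.72 to 1143 CPM, and over WT clusters from 0 to 51.7 CPM. Cluster 7 of CF held 43.4% of its ECRG4, 52.7% of its MAL and 63.7% of its DKK1, with 28.3% of the UMIs of the library. In WT, cluster 17 held 65.7% of ECRG4 and 61.7% of MAL, so a WT population with these transcripts existed, at a lower summed level.

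**Figure D2:**
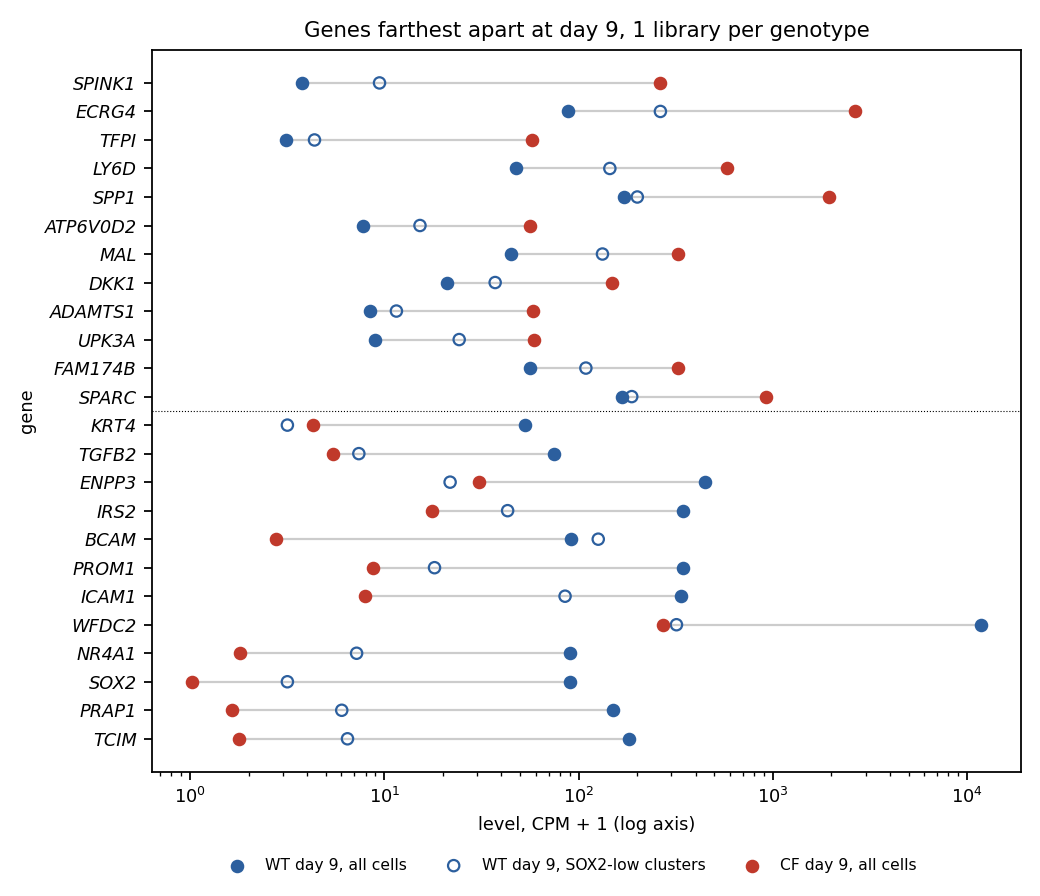
Levels (CPM + 1, log axis) of the 12 highest and the 12 lowest named genes (vertical axis) at day 9, with filled points for the CF and WT libraries and open points for the WT cells of SOX2-low clusters, described at the end. SPINK1 is at 261 CPM in CF and 2.75 CPM in WT, and SOX2 at 0.02 and 88.8 CPM.

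Among the 12 genes furthest below WT, WFDC2, a secreted whey acidic protein of airway and other mucosal epithelia, carried by far the most RNA. It was at 271 CPM in CF and 11815 CPM in WT, 43.6-fold higher in WT (42.9 to 44.4). Its cluster ranges overlapped, from 2.97 to 697 CPM in CF and from 206 to 28765 CPM in WT, and cluster 7 held 72.9% of the WFDC2 of CF. SOX2, the transcription factor of foregut and airway epithelia, had 1 UMI in CF against 7528 in WT (88.8 CPM), a ratio of 0.000225 (5.7e-06 to 0.00126). TCIM, a small nuclear regulator of transcription, was at 0.78 CPM in CF and 180.2 CPM in WT. PRAP1, a secreted proline-rich protein, was at 0.64 and 150.0 CPM.

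The remaining genes of that group differed by −3.63 to −5.65 on the log2 scale. NR4A1, an orphan nuclear receptor of the immediate early response, was at 0.80 CPM in CF and 89.7 CPM in WT. ICAM1, the leukocyte adhesion molecule, was at 6.96 and 334 CPM, and its ranges over clusters did not overlap, with 0.907 to 22.9 CPM in CF and 51.2 to 741 CPM in WT. The levels of CF clusters 13, 16, 21, 23 and 27 rest on 1 or 2 UMIs each, and counting error at that depth was not taken into account. PROM1, which marks apical membrane protrusions and is in the study a marker of centroacinar cells, was at 7.76 and 343 CPM. Other genes by which the study named these cells did not all go that way. S100A4 was lower too, while S100A6 and KRT7 were within 2-fold. The laminin receptor BCAM was at 1.78 and 90.4 CPM, and IRS2, the adaptor of the insulin receptor, at 16.7 and 344 CPM. The ectoenzyme ENPP3, the cytokine TGFB2 and the keratin KRT4 completed the group, at −3.86, −3.77 and −3.63.

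Among the most abundant transcripts other than WFDC2, these were within 2-fold. S100A6 was at 43724 CPM in CF and 46216 CPM in WT, TMSB4X at 8715 and 7463 CPM, and FTH1 at 6478 and 7202 CPM. CLU, a secreted chaperone, was at 6348 CPM in CF and 3746 CPM in WT.

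Collagen genes were for the most part higher in CF when whole libraries were compared. Of the 10 collagen genes tested, 8 were at least 2-fold higher and 0 lower, with a median of 1.67 against 0.09 over all genes. Some of these genes, COL1A1 and COL4A1 among them, passed the 10 CPM filter only through CF. Without that filter the median over the 22 collagens with UMIs was 1.01, and over the 3 at 50 CPM or more it was 1.12. With the classes given equal weight in both libraries, the collagen median was 0.86. COL1A1, a chain of fibrillar type I collagen, was at 13.2 CPM in CF and 0.153 CPM in WT. The basement membrane chain COL4A1 was at 29.2 and 2.70 CPM, COL7A1 of anchoring fibrils was 2.63 higher on the log2 scale, and COL18A1 was at 452 and 155 CPM. COL17A1, a hemidesmosome collagen of basal epithelial cells, was at 269.5 and 126 CPM.

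Of 9 matricellular and glycoprotein genes tested, 6 were at least 2-fold higher and 1 lower, with a median of 1.17. VCAN, a large proteoglycan, was at 17.2 CPM in CF and 0.991 CPM in WT, fibronectin FN1 at 431 and 155 CPM, and biglycan BGN at 400.4 and 177 CPM. TGFBI went the other way, at 29.7 CPM in CF and 166 CPM in WT. Laminins and integrins had 4 of 14 genes at least 2-fold higher and 0 lower, with a median of 0.64, or 0.11 with equal class make-up. Among the higher genes were LAMB1 (71.9 and 24.8 CPM) and ITGB5 (52.1 and 13.1 CPM). The integrin ITGB1, which pairs with many alpha chains, was at 1024 and 710.1 CPM.

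Genes of the contractile cytoskeleton had 3 of 13 at least 2-fold higher and 0 lower, with a median of 0.47, or −0.013 with equal class make-up. The higher genes were the mesenchymal filament VIM (261 and 52.9 CPM), the myosin kinase MYLK (16.9 and 3.83 CPM) and the actin-binding TAGLN (591 and 268 CPM). Of 10 regulators of the epithelial-mesenchymal transition, PRRX2 alone was past 2-fold, at 31.7 and 4.59 CPM. Of the 12 fibroblast markers, 11 were in the matrix, and PDPN (93.5 and 36.2 CPM), COL1A1 and COL1A2 (4.78 and 0.0354 CPM) made most of a summed level of 116 CPM in CF and 42.0 CPM in WT. In WT 6 of them were at 0, COL3A1, LUM, PDGFRB, THY1, RGS5 and DES, and in CF DES alone was, while DCN was at 0.18 and 0.0944 CPM and PDGFRA was higher in WT (1.82 and 5.51 CPM). The part of such cells in the matrix genes was not tested.

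The matrix genes were carried by clusters under different class names. In CF, clusters 3 and 11, both named centroacinar, held 44.8% and 38.8% of SPP1, 45.2% and 35.0% of SPARC, and 27.9% and 55.1% of COL1A1. In WT, clusters 8 and 2, both named ductal, held 33.4% and 27.2% of SPP1 and 31.8% and 33.8% of SPARC. FN1 was for the most part in cluster 11 of CF (55.4%) and cluster 2 of WT (53.1%). Cluster 11 of CF was led by ACTA2, COL1A1, COL1A2, ANKRD1, TAGLN and FN1, and cluster 2 of WT by genes that included INHBA, FN1, ANKRD1 and TAGLN.

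**Figure D3:**
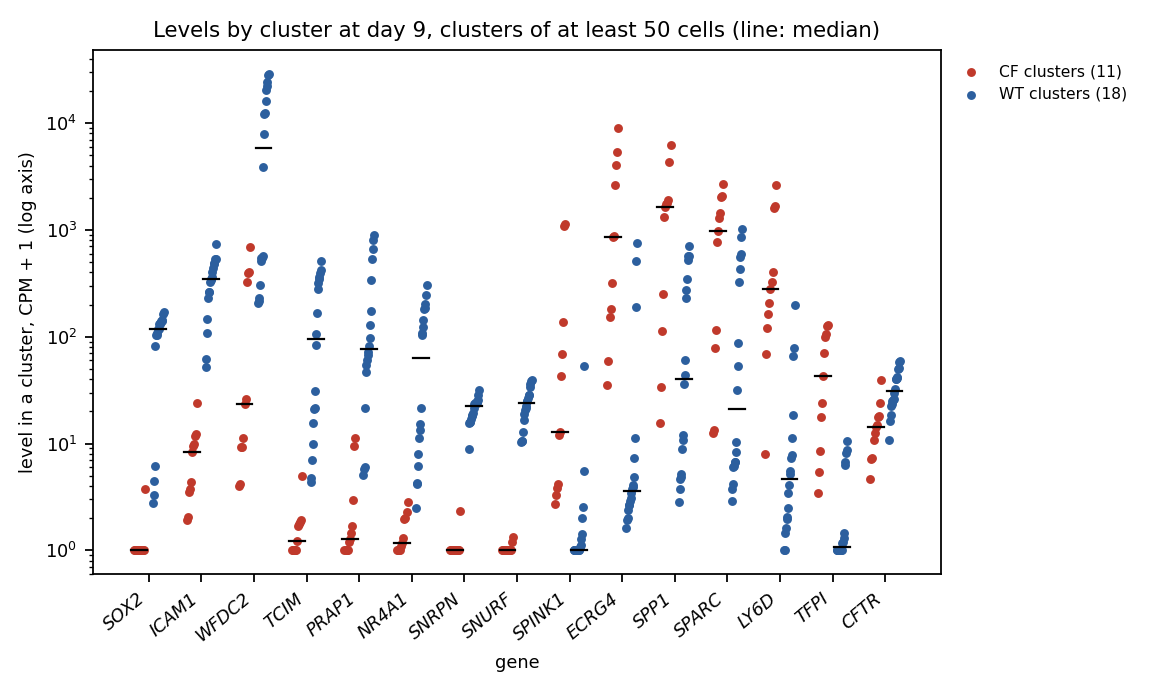
Levels (CPM + 1, log axis) of 15 genes in each cluster of at least 50 cells at day 9, 1 point per cluster (11 of CF, 18 of WT), with a line at the median. Clusters are parts of 1 library and not replicates. ICAM1 separates the clusters (0.907 to 22.9 CPM in CF, 51.2 to 741 CPM in WT), whereas those of SPP1 overlap.

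Secretory and mucin genes were lower in CF in the whole libraries. All 6 of the airway secretory genes tested were at least 2-fold lower, with a median of −2.87, and all 6 of the mucins tested, with a median of −2.16. Against the WT cells of SOX2-low clusters, described at the end, these medians were 0.05 and −0.45, and within the ductal class 0.96 and 0.52. Beside WFDC2, the immunoglobulin transporter PIGR was at 2.84 CPM in CF and 36.6 CPM in WT, the secretoglobin SCGB1A1 at 0.44 and 12.4 CPM, and BPIFB1 at 5.78 and 37.8 CPM. LYPD2 was at 248 and 774 CPM. The list is named for airway biology, and these levels name no cell type.

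The membrane mucin MUC1 was at 412 CPM in CF and 1206 CPM in WT, MUC16 at 145 and 334 CPM, MUC4 at 9.80 and 103 CPM and MUC13 at 15.8 and 159.9 CPM. The gel-forming mucins MUC5AC (45.9 and 126 CPM) and MUC5B (7.40 and 56.4 CPM) were lower too. MUC5AC had stood the other way on each earlier day, at 4.68 on day 2, 2.46 on day 5 and 1.02 on day 7.

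Gastric and surface-cell genes were divided, with 3 of 12 at least 2-fold higher and 2 lower. SPINK1, UPK3A and GKN1 (41.5 and 15.7 CPM) were the higher genes. The trefoil peptide TFF3 (78.8 and 372 CPM) and the protease CTSE (4.36 and 12.6 CPM) were the lower ones. Of 9 antimicrobial genes, CXCL14 was higher (10.3 and 0.731 CPM) and 4 were lower, WFDC2, PI3 and the oxidase pair DUOX2 (−1.20 on the log2 scale) and DUOXA2 (22.6 and 52.7 CPM).

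Transcription factors of the foregut and of squamous epithelium had 6 of 14 at least 2-fold lower in CF and 2 higher, with a median of −0.64. NKX2-1, the factor of lung and thyroid, was at 0.60 CPM in CF and 12.5 CPM in WT, and the goblet cell factor SPDEF at 3.46 and 15.6 CPM. KLF4 was at 15.8 and 52.6 CPM, SOX21 at 26.2 and 68.9 CPM. GATA3 (195 and 53.8 CPM) and the basal cell factor TP63 (60.8 and 29.4 CPM) were higher in CF.

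Pancreatic transcription factors other than PDX1 were mostly close between the whole libraries, less so within classes. Only 10 of the 28 listed passed the level filter, and their median was 0.22, with NR5A2, an orphan receptor of acinar and duct cells, higher in CF (41.6 and 17.6 CPM) and the NOTCH target HES1 lower (535 and 1078 CPM). PAX6, a factor of endocrine cells, was at 47.5 and 28.5 CPM, a log2 difference of 0.72. FOXA1 was at 119 and 137 CPM and GATA6 at 65.7 and 53.9 CPM. PDX1 itself was below the 10 CPM filter. Within the centroacinar class 4 of 10 listed factors were higher and 0 lower, with a median of 0.76. Progenitors had 4 of 8 higher and 1 lower (1.06), and ductal cells 2 of 12 higher and 5 lower (−0.038). Over all genes of these classes 9.86%, 7.56% and 5.42% were higher.

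Immediate early genes, which are transcribed within minutes of a stimulus, were lower or level in CF in the whole libraries, with 9 of 19 at least 2-fold lower and 0 higher, and a median of −0.80. Beside NR4A1 these were FOSB (76.0 and 293 CPM), JUN (333 and 844 CPM), JUND (113 and 235 CPM), EGR2, FOSL1, IER3 (559.5 and 1773 CPM), DUSP1 and KLF2. Such genes also respond to the handling of cells at dissociation, and the part of handling was not tested. At day 2 the median of the same 19 genes, which passed the filter at day 9, was −0.17, at day 5 −0.26 and at day 7 −0.65.

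Genes of NF-kB signalling and inflammation had 6 of 16 at least 2-fold lower and 1 higher, with a median of −0.73. Their products include ICAM1, the cytokines IL1A (11.8 and 67.1 CPM), CXCL8 (0.74 and 11.3 CPM) and CSF3 (2.10 and 28.0 CPM), and the inhibitors NFKBIA (445 and 907 CPM) and NFKBIZ (59.9 and 153 CPM). LTB, a lymphotoxin chain, was higher in CF (67.6 and 17.1 CPM). None of the 13 interferon-induced genes tested in the whole libraries was past 2-fold, and their median was 0.12. Among progenitors 5 of 15 were higher and 0 lower, with a median of 0.71. Centroacinar cells had 2 of 12 higher and 0 lower, and ductal cells 2 of 14 higher and 2 lower.

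**Figure D4:**
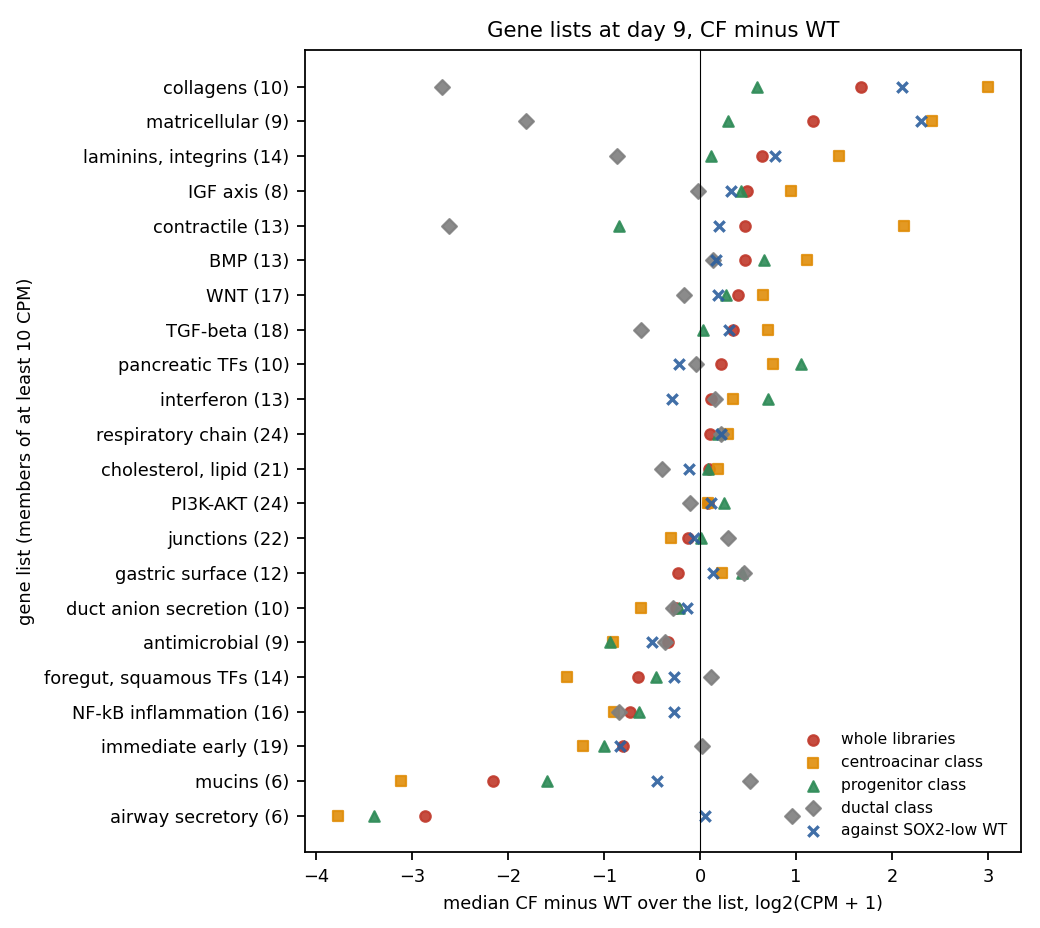
Median log2 difference, CF minus WT, over the tested members of 22 gene lists at day 9 (number of members in parentheses), in the whole libraries, within each class and against the WT cells of SOX2-low clusters. In whole libraries collagens lie to the right (1.67), and mucins (−2.16) and airway secretory genes (−2.87) to the left.

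Among 10 genes of duct anion and fluid secretion, 4 were at least 2-fold lower and 1 higher, with a median of −0.25. Lower in CF were CFTR, the basolateral chloride loader SLC12A2 (151 and 364 CPM), its kinase STK39 (3.14 and 20.6 CPM) and the potassium channel subunit KCNE3 (4.76 and 45.04 CPM). The water channel AQP3 was higher (147 and 67.9 CPM). Of 10 sodium transport genes the channel subunit SCNN1A was lower (66.1 and 209 CPM) and the kinase SGK1, which keeps that channel at the membrane, was higher (73.3 and 31.0 CPM).

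Signalling genes differed in single members more than as groups. In the BMP list, 2 of 13 genes were past 2-fold, both higher and both secreted proteins of the follistatin family, FST (162 and 49.8 CPM) and FSTL1 (27.3 and 0.413 CPM), while the BMP targets ID1 (598 and 453 CPM), ID2 (165 and 142 CPM) and ID3 (869 and 732 CPM) were within 2-fold. In the WNT list 3 of 17 were higher and 0 lower, among them the antagonist DKK1 and the target CCND1 (218 and 97.7 CPM). The IGF list had 3 of 8 higher and 0 lower, with IGFBP2 at 40.1 and 0.661 CPM, IGFBP7 at 1818 and 888 CPM and IGF2R at 90.4 and 43.9 CPM. The list medians were 0.47, 0.40 and 0.49.

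In the TGF-beta list 2 of 18 were higher (LDLRAD4 and the inhibitory SMAD7, 115 and 55.8 CPM) and 2 lower (TGFB2 and TGFBI). The NOTCH list had LFNG higher (47.1 and 18.6 CPM) and HES1 lower among 8. Of 24 genes of the PI3K and AKT pathway, the ligand GAS6 was higher (80.4 and 26.2 CPM) and IRS2 was lower. The EGF receptor list had EGF (14.8 and 2.29 CPM) and EGFR (402 and 185 CPM) higher and the feedback inhibitor ERRFI1 (143 and 327 CPM) lower among 10. The 27 tested genes that the study itself followed in these libraries had 5 higher, 4 lower and a median of 0.38, which is no independent evidence of direction.

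Keratins of simple epithelia were within 2-fold, all 4 tested. The squamous list had 3 of 7 higher (LY6D, DSC3 and KRT10) and 3 lower (KRT4, KRT15 and DSG3). Of 22 junction genes 1 was higher and 2 were lower, near the shares over all genes. The desmosomal cadherin DSC2 was at 0.12 CPM in CF and 30.8 CPM in WT, while its relative DSC3 was at 55.5 and 18.1 CPM. S100A4 was the S100 gene with the largest difference, at 22.7 CPM in CF and 286 CPM in WT. Of 12 proteases and inhibitors, MMP14, the membrane-bound collagenase, was lowest in CF at 0.08 CPM against 23.6 CPM, PLAU (49.2 and 104 CPM) and PLAT (23.8 and 52.8 CPM) were lower and TIMP1 was higher (167 and 72.6 CPM).

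Respiratory chain and lipid synthesis genes were within 2-fold. The 24 respiratory chain genes and the 21 genes of cholesterol and lipid synthesis tested held 0 genes past 2-fold, with medians of 0.11 and 0.09. Over all genes only 3.56% were higher and 3.78% lower, so these counts do not set the lists apart. Of 21 genes of glycolysis and hypoxia, CA9 (12.7 and 2.35 CPM) and P4HA2 (151 and 60.3 CPM) were higher and LDHB (26.4 and 100.2 CPM) was lower. Of 22 redox genes, GCLM and CAT were higher and PRDX2, PRDX5, PRDX6 and ALDH1A1 (111 and 313 CPM) were lower. The ER and amino acid stress list had 3 of 21 lower, DDIT3, PSAT1 and NUPR1, and 0 higher. Few cell cycle genes reached the filter, 5 of 20 S phase genes and 1 of 20 G2/M genes, and none of these was past 2-fold.

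The class make-up of the cultures also differed. The authors had clustered CF and WT cells separately and given each cluster a class name from published references, and a cluster was kept under its name here unless the fixed markers of the classes or its depth went against it. Centroacinar cells were 66.0% of CF cells (64.1 to 67.9) and 40.5% of WT cells (39.2 to 41.8, Clopper-Pearson). Cluster 11 of CF (266 cells) was led by matrix and contractile genes. With its cells kept in the total but not counted as centroacinar, the CF share was 55.3% (53.3 to 57.3). This setting was added after seeing the data. Centroacinar progenitors were 7.23% of CF cells (180 cells) and 14.2% of WT cells (769 cells). Ductal cells were 2.05% of CF cells (51 cells) and 36.9% of WT cells (2001 cells). Proliferating and acinar classes held 0 to 2 cells a library.

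These shares rest on how the clusters were named. Among kept clusters of at least 50 cells, none of those named centroacinar or ductal had a marker of any class among its 10 leading genes, so these names rest on the deposited annotation alone. Clusters not kept held 24.6% of CF cells and 8.33% of WT cells, and 233 of those CF cells were in cluster 19, named ductal. Under the deposited names of all clusters, ductal cells were 11.4% in CF and 39.7% in WT, and centroacinar cells 78.6% and 43.6%. The clusters were formed separately in each genotype, and the matrix genes fell in clusters of different class names in CF and WT, so the shares are a description of the deposited names. Doublets had been removed by the authors.

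Within the centroacinar class, 802 of 8136 genes (9.86%) were at least 2-fold higher in CF and 583 (7.17%) lower. LY6D was at 581 CPM in CF and 8.90 CPM in WT, TFPI at 70.0 and 0.375 CPM, IGFBP2 at 51.3 and 0.144 CPM, SPP1 at 2469 and 66.1 CPM, and ECRG4 at 1668 and 48.7 CPM. SOX2 had 0 UMIs in CF against 4265 in WT, TCIM was at 0.47 and 283 CPM, and PROM1 at 4.68 and 569 CPM. Of the 11 collagens tested in the class all 11 were higher, with a median of 3.00, and 11 of 15 contractile genes were higher, with a median of 2.13. The class was made for the most part by clusters 3, 7 and 11 in CF and by clusters 3, 7 and 16 in WT, which are not the same clusters. Cluster 11 of CF (266 cells) was the one whose 10 leading genes include the fibroblast markers COL1A1 and COL1A2. Without it, a setting chosen after seeing the data, 681 genes were higher and 536 lower, the 8 collagens tested were all higher with a median of 2.68, and 9 of 14 contractile genes were higher with a median of 1.45. The median mitochondrial share of the class was 4.97% in CF and 11.3% in WT. TMM scaling gave 556 higher and 804 lower genes.

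Among centroacinar progenitors, 598 of 7912 genes (7.56%) were at least 2-fold higher in CF and 462 (5.84%) lower. SPINK1 was at 1239 CPM in CF and 0.504 CPM in WT, ECRG4 at 8536 and 12.4 CPM, MAL at 999 and 4.03 CPM, UPK3A at 225 and 1.93 CPM, and NRN1 at 229 and 3.28 CPM. WFDC2 was at 309.7 CPM in CF and 21884 CPM in WT, and SOX2 had 0 UMIs in CF against 1510. PRAP1 had 0 UMIs in CF against 1189. Contractile genes were not higher in this class, with 5 of 11 at least 2-fold lower and a median of −0.85. Cluster 18 made up 139 of the 180 CF cells and cluster 21 made up 418 of the 769 WT cells. TMM scaling gave 450 higher and 585 lower genes.

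In the ductal class, where CF had 51 cells, 452 of 8341 genes (5.42%) were at least 2-fold higher and 773 (9.27%) lower. LY6D (3533 and 107 CPM), ECRG4 (4196 and 156 CPM) and the uroplakin UPK1A (272 and 23.9 CPM) were higher in CF. Contractile and matrix genes stood lower here, opposite to the centroacinar class, with TAGLN at 0.84 CPM in CF and 612 CPM in WT, and CALD1 at 2.52 and 676 CPM. The CF cells of the ductal class held 1190081 UMIs in all, so those CF levels rest on very few UMIs. Of 6 collagens tested in the class 5 were lower, with a median of −2.69, and of 12 contractile genes 11 were lower, with a median of −2.62. The secretory lists were divided here, with 2 of 6 mucins higher and 2 lower (median 0.52) and 2 of 4 airway secretory genes higher and 1 lower (median 0.96). Of 18 immediate early genes 3 were higher and 2 lower, with a median of 0.015. Under the deposited names of all clusters the lower genes numbered 1283, and TAGLN and CALD1 were still lower, by −5.82 and −5.72. Cluster 2 of WT, named ductal, held 39.8% of the TAGLN of WT, and cluster 11 of CF, named centroacinar, held 59.0% of that of CF. The difference between the classes was not tested.

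Few genes separated the libraries in every cluster. With at least 50 cells a cluster, 14 genes (0.173%) were higher in all 11 CF clusters than in any of the 18 WT clusters, and 14 (0.173%) were lower in all. The counts were 12 (0.148%) and 8 (0.0989%) with clusters of at least 20 cells. They were 106 (1.31%) and 57 (0.704%) when the clusters not kept under their names were left out, which leaves 6 CF and 14 WT clusters. CF clusters 13 and 21, not kept, held 0.238% and 0.175% of the CF UMIs, so that 1 UMI there was 8.40 and 11.4 CPM. A gene near the 10 CPM filter could hardly separate at that depth, and the part of depth was not tested. Levels over clusters ranged from 67.2 to 119 CPM in CF and from 35.0 to 66.4 CPM in WT for VPS36, a subunit of the ESCRT machinery. For the splicing protein SRRM1 they ranged from 367 to 548 CPM and from 224 to 342 CPM. The VPS36 ranges were apart by less than 1 UMI in cluster 13 of CF (8.40 CPM), and counting error was not taken into account. Of the 14 higher genes the other 12 had no name beyond a LOC number.

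Many of the separated genes were close to absent from a library rather than graded. LOC123386996 had 36286 UMIs in CF and 12 in WT, LOC101672794 had 7032 and 8, LOC123394022 had 3932 and 3, LOC123394028 had 4261 and 4, and LOC123394021, LOC123394027, LOC123390397 and LOC101691637 had 1166, 1846, 703 and 2459 UMIs in CF and 0 in WT. RefSeq lists LOC123394021, LOC123394022, LOC123386996, LOC123394027 and LOC123394028 in that order, with LOC123394022 directly after LOC123394021 and LOC123394028 directly after LOC123394027. Their chromosome is not given here. On the WT side, LOC101684540, a long noncoding RNA, had 0 UMIs in CF and 1747 in WT, at least 343-fold lower in CF against the 3-UMI limit. It was at 0 in CF on the other days as well. The labels do not give the sex or the relatedness of the pooled animals.

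Named genes of this kind were lower in CF. The polyamine oxidase PAOX had 2 UMIs in CF and 1398 in WT. The lectin receptor CLEC12A had 0 and 1010, at least 199-fold lower against the 3-UMI limit. SNURF had 3 and 1942 UMIs and SNRPN 8 and 1759, with WT clusters at 9.44 to 38.6 CPM and 7.96 to 30.6 CPM. RefSeq lists SNURF (10801773 to 10820231) directly before SNRPN (10819382 to 10835798), and their chromosome is not given here. If both lie on the same sequence they overlap and reads could be split between them. NDN, listed shortly before them, had 4 and 1280 UMIs, and was added here after its values were seen. In mammals these 3 genes are imprinted and are expressed from the paternal copy. On days 2, 5 and 7 SNURF stood at 0 to 0.0684 CPM in CF and 10.0 to 13.7 CPM in WT, and SNRPN at 0 to 0.230 and 24.4 to 25.9 CPM.

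LOC106003392 was the LOC gene with the most RNA among the lower ones, at 9.70 CPM in CF and 3261 CPM in WT, from 0 to 20.8 CPM over CF clusters and from 42.3 to 8889 CPM over WT clusters. RefSeq lists it between HPS5 and LOC101685083. LOC106005313, a long noncoding RNA, was at 0.12 and 344 CPM. Neither gene has a name in RefSeq.

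The same genes were looked at on the earlier days, whose libraries came from the same pooled animals and are not replicates. The 24 named genes were chosen as the extremes at day 9, and no such count was made over all genes for comparison. Of these 24, 17 were at least 2-fold in the same direction at day 2, 20 at day 5 and 24 at day 7, and 16 on all 3 days. Those with a late difference included SPINK1, at 0.91 on day 2, 4.86 on day 5, 5.81 on day 7 and 6.13 on day 9, and NR4A1, at −0.58, −3.12, −3.60 and −5.65. SPP1 was at 0.22 on day 2, −1.74 on day 5 and 3.68 on day 7, so day 5 stood opposite to days 7 and 9. ECRG4 (6.61, 6.43, 5.52 and 4.91) and SOX2 (−6.84, −6.10, −6.03 and −6.46) differed on every day.

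The collagen genes tested at day 9 stood the other way at day 5 in the median. The median of the collagens was 0.37 on day 2, −0.66 on day 5, 1.61 on day 7 and 1.67 on day 9, and the median of the mucins was 0.83, −0.18, −1.25 and −2.16. FN1 was at −5.24 on day 5 and at 2.11 on day 7. The median of the airway secretory list was −0.29, −1.07, −2.29 and −2.87. All these medians cover only the members that passed the 10 CPM filter at day 9, some collagens only through CF. The genes were thus chosen by their day 9 levels, and no median over all genes is given for the earlier days.

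**Figure D5:**
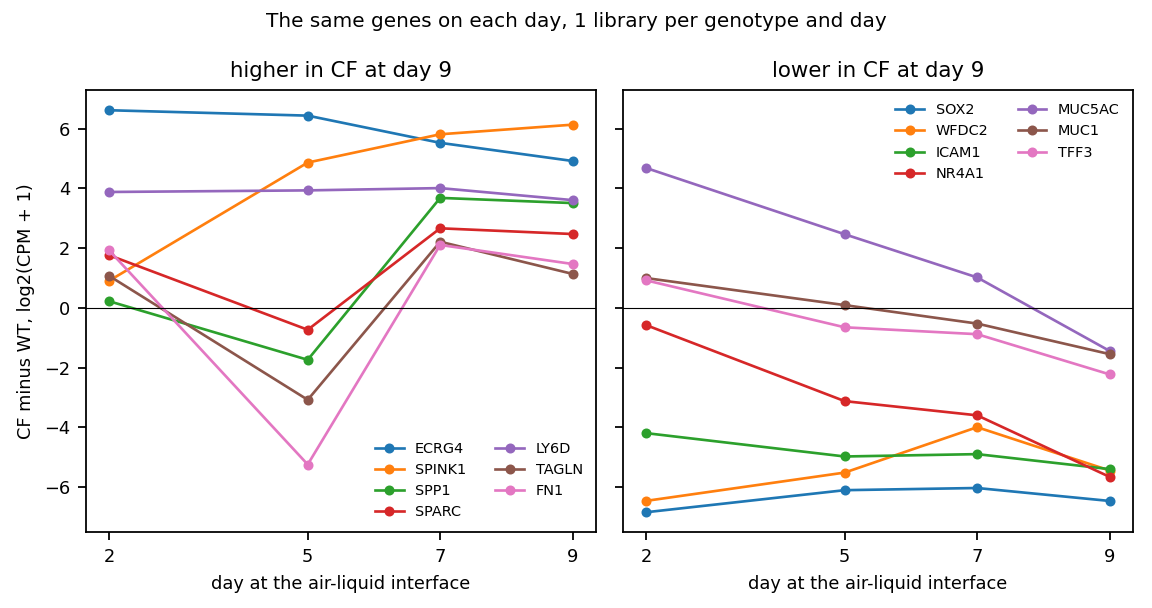
Log2 difference, CF minus WT, of 14 genes (vertical axis) against the day at the interface, with 1 library a side on each day and the genes higher and lower in CF at day 9 in separate panels. SPINK1 lies at 0.91 on day 2 and 6.13 on day 9, SPP1 and FN1 are below 0 on day 5, and SOX2 lies between −6.03 and −6.84 on every day.

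The WT library held a population with little SOX2, and the comparison was repeated against it. In 12 WT clusters SOX2 was under 10 CPM, and these held 1510 of the WT cells at day 9 (27.9%), clusters 8 and 17 the largest. Against these WT cells 218 genes were at least 2-fold higher in CF and 119 lower, so higher genes were 64.7% of those past 2-fold. Of the genes called lower against all WT cells, 32 turned to at least 0.5 the other way, and the 3 of them that had been lowest against all WT cells were MUC13 (−3.26 to 1.48), PANK4 (−3.06 to 0.66) and CD74 (−2.45 to 0.53), and 1 of those called higher did, GUCA2A (1.03 to −0.53).

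WFDC2 was at 318 CPM in the SOX2-low WT cells, so that its difference shrank from −5.44 to −0.23, and the median of the airway secretory list went from −2.87 to 0.05. ENPP3 (0.49) and KRT4 (0.43) turned sign. ICAM1 (−3.42), BCAM (−5.50), SPINK1 (4.80), ECRG4 (3.33) and SPP1 (3.28) were still past 2-fold. The collagen median was 2.10, that of the matricellular genes 2.30 and that of the immediate early genes −0.84. The medians of the NF-kB list (−0.27), the foregut and squamous factors (−0.27), the BMP list (0.17) and the WNT list (0.18) were nearer 0 than against all WT cells. The mucin median was −0.45 against these cells, and single secretory genes differed in both directions, with BPIFB1 at −4.06, MUC5AC at −1.74, MUC5B at −1.47, MUC13 at 1.48 and LYPD2 at 2.23.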

How the data were processed

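The authors aligned reads and counted UMIs with Cell Ranger 5.0.1 (submitters' processing notes, which also name R 4.1.2 and Seurat) against ASM1176430v1.1 and an annotation of their own. They deposited raw UMI counts per gene and barcode (27912 genes) and a cell table with class names, clusters and the percent of mitochondrial UMIs per cell, after a mitochondrial limit and the removal of doublets. The normalized table, the lineage scores and the S and G2/M scores and phases that they deposited were set aside. Symbols of 27467 genes matched RefSeq. Chromosome names of its table were used only to find the mitochondrial genes, and it gives no sequence, so none is printed.

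Counts of retained cells were summed by library, class and cluster and scaled to CPM (per 1000000), and differences are log2(CPM + 1). Genes at 10 CPM or more in 1 library were described, and 2-fold was the limit for a call. Intervals are exact conditional binomial (ratios) or Clopper-Pearson (shares). Clusters whose median depth was under 1 part in 3 of their library with no marker of their class among the 10 leading genes, or with more markers of another class than of their own among those genes, were not kept. Named genes were the 12 highest and the 12 lowest non-LOC genes at 50 CPM or more, the 2 highest and 2 lowest LOC genes, up to 4 per list, the 5 highest and 5 lowest per class, the genes that separated the clusters, the most abundant and the turned genes. Other list members past 2-fold are named to account for their counts, and a few genes are counted in their lists but not reported here by name. The 46 lists and the members were chosen with earlier results of these data known.

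Alternatives were another pseudocount (5 CPM), TMM and DESeq2 scaling, level filters, mitochondrial genes left out, equal weight per cell, thinning to 3000 UMIs, all barcodes, equal class make-up, SOX2-low WT cells, kept clusters, and the centroacinar class without cluster 11 of CF. Python 3.11.15, numpy 2.4.6, pandas 2.3.3, scipy 1.17.1, R 4.3.3, edgeR 4.0.16 (TMM factors) and DESeq2 1.42.0 (size factors) were used. The calculations were run on simulated UMI sums with known folds, which held counting error only. That run checks the arithmetic and says nothing about variation between animals, cultures or libraries. With 1 library for each genotype no test was possible.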

Additional observations from a re-analysis of the deposited data

Results flagged for a closer look

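The results here are genes that stood at least 2-fold one way in a comparison and at least 2-fold the other way in a related one, on the log2 scale, CF minus WT. With 1 library a side the differences between the comparisons were not tested. The clusters that make up a class are not shared between the genotypes. Cells rich in contractile genes were in part named ductal in WT (cluster 2) and centroacinar in CF (cluster 11). The CF ductal class held 51 cells and 1190081 UMIs, so its lowest levels rest on very few UMIs.

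The genes in the next sentences were lower in CF within the ductal class and higher within the centroacinar class, and were chosen for that. TAGLN stood at −8.38 in ductal and 3.88 in centroacinar cells, CALD1 at −7.59 and 2.65, MYL9 at −6.88 and 2.13, ANKRD1, a stress-responsive muscle ankyrin repeat protein, at −6.12 and 2.64, VIM at −3.41 and 4.02, and SNAI2 at −2.59 and 2.71. SPARC stood at −4.62 and 4.77, SPP1 at −2.90 and 5.20, PDPN at −2.49 and 3.66, and ITGB1 at −1.74 and 1.49. Among secreted and signalling genes, SRGN stood at −6.69 and 2.84, FST at −4.70 and 4.14, CLU at −2.35 and 2.32, IGFBP7 at −1.03 and 2.70, and JAG1 at −1.73 and 1.07. HSPB1 stood at −2.45 and 3.23 and S100A2 at −1.17 and 1.91.

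A smaller set went the other way, higher in CF in ductal and lower in centroacinar cells. SCNN1A stood at 1.25 and −3.21, the tight junction gene TJP3 at 1.49 and −1.81, and FOSB at 1.70 and −2.97.

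Between days, SPP1 stood at −1.74 on day 5 and 3.51 on day 9, COL4A1 at −2.62 on day 5 and 3.03 on day 9, and TAGLN at −3.08 on day 5 and 1.14 on day 9. On day 2, FST stood at −1.19 against 1.68 on day 9, SRGN at −3.04 against 1.56, PLAT at 3.43 against −1.12 and DUOX2 at 1.18 against −1.20. SRGN was at −2.28 on day 5. Members of the gene lists that the naming rule did not take were compared between days as well. MUC5AC stood at 4.68 on day 2, 2.46 on day 5 and 1.02 on day 7 against −1.44 on day 9, and FN1 at −5.24 on day 5 against 1.47. COL12A1, a collagen of fibril surfaces, stood at −1.45 on day 5 against 1.81. LTB stood at −2.88 on day 2 and −1.80 on day 7 against 1.92, LYPD2 at 1.16 on day 2 against −1.64, and FOSL1 at 1.204 on day 2 against −1.32.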

How the results depend on the processing

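No paired analysis was possible because each genotype had 1 library at day 9, and no replicate could be left out. Of 137 named genes past 2-fold, all 137 kept their direction under 9 of the alternatives, 117 against the WT cells of SOX2-low clusters and 136 against the other WT cells, an alternative added after seeing the data. Those still past 2-fold numbered 108 with equal class make-up and 83 against SOX2-low WT cells. Many of the named genes were chosen by the size of their difference in these same counts. Another pseudocount cannot change a sign, and TMM and DESeq2 scaling moved the median by only −0.13 and −0.10. A kept direction under such alternatives is therefore no support. The higher and lower genes numbered 288 and 306 in the comparison as reported. They numbered 514 and 545 with no level filter (more genes tested), 123 and 121 at 50 CPM or more (fewer genes tested), and 430 and 318 with equal weight per cell. Against SOX2-low WT cells 119 genes were lower, and against SOX2-high WT cells 499 were higher and 435 lower.

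Of the values past 2-fold, these changed sign against SOX2-low WT cells: ENPP3 0.49, KRT4 0.43, KCNE3 0.46, SCNN1A 0.70, NR5A2 −0.32, DSG3 1.18, MUC4 0.40, MUC13 1.48, CTSE 0.55, PIGR 0.13, TGFBI 1.48, MARVELD2 −0.18, TIMP1 −0.15, CXCL8 0.45, LDHB 0.33, PRDX2 0.20, NRN1 −0.11, GUCA2A −0.53, PANK4 0.66, CD74 0.53 and the median of the airway secretory list 0.051. Against SOX2-high WT cells BPIFB1 did, at 0.088. Smaller medians changed sign against SOX2-low WT cells too, to −0.12 for the genes that the study followed, −0.21 for pancreatic factors, −0.30 for interferon genes, −0.12 for cholesterol genes, −0.044 for glycolysis genes and 0.14 for gastric surface genes. With equal class make-up 8 of 38 list medians changed sign, to 0.28 for gastric surface, −0.74 for squamous, −0.18 for NOTCH, −0.18 for ER stress, −0.12 for cholesterol, −0.27 for S phase, −0.085 for cell cycle regulator and −0.013 for contractile genes. At 50 CPM or more 10 medians did, with TMM scaling 8, with DESeq2 scaling 6 and against SOX2-high WT cells 4, each of them at most 0.25 in size as reported. Of lists with at least 3 tested members, 4 had a median past 2-fold, and 2 against SOX2-low WT cells.

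Under the deposited names of all clusters, the share difference was 35.0 percentage points for centroacinar and −28.3 for ductal cells, and 1283 genes were lower in the ductal class. With cells of at least 3000 UMIs the centroacinar difference was 31.7 points. With cluster 11 of CF kept in the total but not counted as centroacinar (added after seeing the data) the centroacinar difference was 14.9 points. It was 25.5 and −34.9 points as reported. Genes that separated the clusters numbered 106 (1.31%) and 57 (0.704%) without the clusters not kept (added after seeing the data). With clusters of at least 20 cells 8 (0.0989%) were lower. The causes were not tested. The 51 ductal cells of CF and genes of a few UMIs limit what the depth can show.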

Other observations

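Regulators of cell cycle exit and entry differed in single members. BTG2, an antiproliferative immediate early gene, was at 155 CPM in CF and 485 CPM in WT, and CCND1 was the only other of the 11 tested regulators past 2-fold. Of 9 retinoid genes the retinal dehydrogenase ALDH1A1 alone was past 2-fold, lower in CF. The small heat shock gene HSPB1 was at 1010.5 CPM in CF and 538 CPM in WT, and DNAJB1 at 41.1 and 51.2 CPM, both within 2-fold.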
